A study of Homo sapiens with 4 samples.

Results

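This comparison asks which transcripts BMP4 changed within 4 h in human embryonic stem cells (hESCs) that received the WNT pathway activator CHIR99021 over the same time. It sets the array labelled BMP4 and CHIR99021 against the array labelled CHIR99021, and its members are all probes with a detection p-value below 0.01 on at least 1 of these 2 arrays, which held for 17284 of 47321 probes. They represent 10573 of 20046 gene symbols, of which 9599 were detected on both arrays and 974 on 1. Cells of the established hESC line HuES6 were stimulated with 20 ng/ml BMP4 plus 5 µM CHIR99021, with 5 µM CHIR99021, with 20 ng/ml BMP4, or were left untreated, and all 4 groups were in medium with 5 ng/ml Activin A and 20 ng/ml FGF2. Activin A signals through SMAD2 and SMAD3, so that branch was supplied in every group. RNA of each group was hybridized to 1 Illumina HumanHT-12 V4 bead array, where beads carrying short DNA probes capture the labelled RNA of single genes. No difference therefore has a replicate check and no p-value is given for any of them. The labels do not say whether an array holds 1 culture or several.

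BMP ligands bring together serine/threonine kinase receptors that phosphorylate SMAD1, SMAD5 and SMAD9. These join SMAD4 in the nucleus and activate genes such as the ID family and the pathway's own inhibitors. CHIR99021 blocks the kinase GSK3, so that beta-catenin is no longer marked for destruction and can act with TCF/LEF factors, as it does after a WNT ligand. In hESCs, BMP and WNT signals are known as inputs that lead out of pluripotency towards mesoderm and extraembryonic fates.

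Values are log2 intensities after background correction with an offset of 16 and quantile normalization, unless named as deposited intensities. Between 15980 and 16762 probes were detected per array (33.8% to 35.4%). The 2 arrays correlated with r = 0.986 across the 17284 probes, which is across probes and not across replicates. Detection was gained with both treatments for 1304 probes and lost for 914. The pluripotency genes POU5F1 (11.42 with both treatments and 11.55 with CHIR99021) and LIN28A (11.76 and 11.77) were bright on both arrays. Of 44 markers with a named probe on 6 lists for other cells, 12 were measured and none differed by 2-fold between the arrays. The linear level summed over a list's probes was between 163 (hepatocyte) and 5522 (neuron) with both treatments and between 157 and 5644 with CHIR99021, and the widest gap was that of the cardiomyocyte list (1834 and 2455), where MYL7 was the 1 gene measured. Measured were 4 of 8 fibroblast markers, among them COL1A1 (9.01 and 8.77) and COL1A2 (9.32 and 9.76), 2 of 7 endothelial markers, CDH5 (5.80 and 5.66) and TEK (7.35 and 7.64), 3 of 7 neuronal markers, and 1 each for blood, cardiomyocytes and hepatocytes. The 3 neuronal markers had a median difference of -0.50 (from -0.77 to 0.31). Others on these lists, such as DCN, LUM, PECAM1, VWF, PTPRC and NKX2-5, were not detected on either array. Whether other cells had a part in any difference was not tested.

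A gene was called higher or lower when its probe differed by at least 1 on the log2 scale, that is 2-fold, between the arrays, which is called the size rule. With BMP4 added, 35 genes were higher (0.331% of the 10573 measured) and 9 were lower (0.0851%), 44 in all (0.416%). Counted by probe, 63 were higher (0.364%) and 21 lower (0.121%). Of the 35 higher genes, 26 were detected on both arrays, whereas only 2 of the 9 lower genes were. At a difference of at least 1.5 there were 10 higher genes and 0 lower, and at 2 or more there were 6 and 0. Over all measured genes the median difference was -0.0014, with 95% of the genes between -0.60 and 0.70. When the genes were split into 4 equal groups by level, the dimmest group held 13 higher and 7 lower genes, and the brightest group 9 and 0. The genes nearest to the threshold were SMIM8 (1.00, called) and FILIP1L (0.998, not called), and on the lower side FMNL1 (-1.03, called) and CH25H (-0.999, not called). The split moved with the processing: median scaling of the arrays gave 26 higher and 17 lower genes, and a background offset of 50 gave 16 and 1. The authors' normalized values, which differ in both background subtraction and normalization, gave 53 and 33 with 16 added and 16 and 1 with 50 added. Of the 35 higher genes 12 passed the size rule in every alternative that measured them, and of the 9 lower genes 0 did.

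The 4 genes used to check the label were all higher. This is not an independent test of the label, since they were chosen with earlier results of these data known. ID1, TFAP2A and HAND1 are also on a list of BMP-driven genes that the study made on these arrays. ID1, which blocks basic helix-loop-helix factors and is a classical direct target of BMP-SMAD signaling, had a deposited intensity of 5127 with both treatments and 439 with CHIR99021, and 4904 with BMP4 alone and 790 in untreated cells. On the log2 scale this was 12.38 against 8.43, a 15.4-fold difference, and 12.36 against 9.43 in the absence of CHIR99021. The CHIR99021 array was the lowest of the 4. As in any bulk measurement, fewer expressing cells and less RNA per cell cannot be told apart. TFAP2A, a transcription factor of surface ectoderm, amnion and neural crest, had 7.19 with both treatments and was not detected with CHIR99021 (4.46), and it had 5.74 with BMP4 alone and was not detected in untreated cells (4.47). For a probe undetected on the dimmer array the fold is given as a lower bound: the brighter value is set against that array's lowest detected value, or against the probe's own value there if this is higher. On this basis TFAP2A was at least 4.50-fold higher. The 4 further TFAP2A probes were not detected on either array, so this rests on 1 probe.

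HAND1, which regulates the formation of lateral mesoderm, heart and trophoblast, had 7.03 with both treatments against an undetected 4.33 with CHIR99021, at least 4.01-fold higher. It had 7.64 with BMP4 alone and an undetected 4.57 in untreated cells. Both arrays with BMP4 therefore detected HAND1 and both arrays without it did not. MSX1, a homeobox factor downstream of BMP in many embryonic tissues, had 10.67 with both treatments, 8.45 with CHIR99021, 6.59 with BMP4 alone and 5.81 in untreated cells. Both arrays with CHIR99021 thus lay above both arrays without it, and the BMP4 difference was 2.22 in the presence of CHIR99021 and 0.79 in its absence. These 2 differences were not tested against each other.

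Promoter sequences are shown for 4 called genes that act directly in the pathway: the targets ID1 and ID3 and the inhibitors SMAD6 and BAMBI. Each is the 250 bases before a transcription start in RefSeq (GRCh38.p14), 5′ to 3′ on the gene's strand, and capitals mark GGCGCC or GGAGCC (or their reverse complements), the GC-rich motifs bound by SMAD1 and SMAD5. They lie at chr20:31605039-31605288 (ID1, + strand), chr1:23559502-23559751 (ID3, - strand), chr15:66701986-66702235 (SMAD6, + strand) and chr10:28677271-28677520 (BAMBI, + strand).
ID1: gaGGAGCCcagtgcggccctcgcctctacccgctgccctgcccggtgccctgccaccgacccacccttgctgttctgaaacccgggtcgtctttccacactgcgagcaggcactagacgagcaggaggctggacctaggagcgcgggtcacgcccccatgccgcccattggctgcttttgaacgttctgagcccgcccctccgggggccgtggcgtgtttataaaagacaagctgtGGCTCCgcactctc
ID3: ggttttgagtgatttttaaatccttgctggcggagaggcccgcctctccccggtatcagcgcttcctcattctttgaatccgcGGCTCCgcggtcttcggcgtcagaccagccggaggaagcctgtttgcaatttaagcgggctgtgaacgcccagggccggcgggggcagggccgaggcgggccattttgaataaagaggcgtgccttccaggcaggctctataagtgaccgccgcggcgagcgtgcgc
SMAD6: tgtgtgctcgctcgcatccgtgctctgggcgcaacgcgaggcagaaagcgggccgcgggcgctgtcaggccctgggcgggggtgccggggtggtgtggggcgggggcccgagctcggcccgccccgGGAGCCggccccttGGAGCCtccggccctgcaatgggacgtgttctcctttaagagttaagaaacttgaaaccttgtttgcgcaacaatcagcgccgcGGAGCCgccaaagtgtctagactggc
BAMBI: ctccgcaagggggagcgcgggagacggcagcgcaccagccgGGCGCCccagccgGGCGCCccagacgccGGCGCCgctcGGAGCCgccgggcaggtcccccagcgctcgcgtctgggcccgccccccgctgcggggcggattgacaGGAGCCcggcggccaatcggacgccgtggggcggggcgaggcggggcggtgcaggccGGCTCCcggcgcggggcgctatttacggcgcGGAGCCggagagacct
The ID1 stretch holds 2 matches to GGAGCC, that of ID3 holds 1 and that of SMAD6 holds 3, and none of these holds GGCGCC. BAMBI holds 3 matches to GGCGCC and 4 to GGAGCC. RefSeq promoters were matched for 20 of the 26 higher genes that were detected on both arrays, giving 28 promoters of 300 bases (250 before and 50 after the start). SMAD6 was detected on 1 of the 2 arrays, so its promoter shown above is not among these 28. On either strand, at least 1 of GGAGCC and GGCGCC occurred in 17 of the 28 (60.7%), against 45.3% of all 35116 promoters. Taken singly, GGAGCC occurred in 17 (60.7%) against 36.0%, and GGCGCC in 7 (25%) against 19.2%. The SMAD4 motif CAGAC occurred in 16 (57.1%) against 45.3%, and the TCF/LEF motif CTTTGA in 3 (10.7%) against 12.9%. Some of the 28 are alternative promoters of 1 gene, GC content was not matched, and a match is a description of the letters and not a binding site.

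Of the 44 called genes, 8 were on the lists of BMP-SMAD targets or intracellular BMP inhibitors. No gene list here was long enough for a count of 0 to set it apart from all genes (0.416%). This includes the lists of ligands, receptors and signal-transducing SMADs. Of 3 measured BMP ligands none passed the size rule, with BMP7 at 7.24 with both treatments and 6.36 with CHIR99021 (difference 0.89). BMP4's own probe was not detected. Of 5 measured receptors and co-receptors none passed, among them the type II receptor BMPR2 (6.37 and 5.90, difference 0.47) and the type I receptor ACVR1 (8.33 and 8.03, difference 0.30). The signal-transducing SMAD1, SMAD5 and SMAD4 differed by 0.33, 0.16 and 0.08, and SMAD9 was not detected.

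Among 6 measured intracellular inhibitors, 2 were higher, 0 lower and 4 neither. SMAD6, which blocks the receptor-activated SMADs, had 6.92 with both treatments against an undetected 4.69 with CHIR99021, at least 3.72-fold higher, and 6.81 with BMP4 alone against 5.33 in untreated cells. BAMBI, a pseudoreceptor that lacks the kinase domain, had 11.32 against 9.84, which is 2.79-fold, and 11.55 with BMP4 alone against 10.31 in untreated cells. For both genes the 2 arrays with BMP4 lay above the 2 arrays without it. SMAD7, the other inhibitory SMAD, had 8.01 against 7.59, but its dimmer second probe had 7.25 against 6.22, a difference of 1.03, with 7.55 and 7.50 under BMP4 alone and in untreated cells. The list's median difference was 0.39. Of 6 measured secreted antagonists none passed, and follistatin (FST) had 11.15 and 11.10 while GREM1 had 9.45 and 9.60.

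Of 17 measured BMP-SMAD targets, 8 were higher and 0 lower, with a median difference of 0.92, beside -0.0014 over all measured genes. The 8 were ID1, ID2, ID3, SMAD6, BAMBI, MSX1, HAND1 and TFAP2A, and the median ran from 0.33 to 1.48 over the alternative processings. SMAD6, HAND1 and TFAP2A were measured only through the array on which they were high. Of the 9 targets detected on both arrays 5 were higher, with a median of 1.48. With no filter on dim probes the median over 23 targets was 0.60. ID2 had 9.23 with both treatments and 6.94 with CHIR99021 (4.89-fold), and 6.64 with BMP4 alone and 5.05 in untreated cells. ID3 had 12.16 against 10.38 (3.43-fold), and 11.75 against 9.43 without CHIR99021. The second probes of ID1 and ID2 were also past the size rule, with differences of 2.52 and 1.63. Members that did not pass included the homeobox genes MSX2 (0.92) and DLX5 (0.78), GATA3 (0.75) and KLF10 (0.60), while ZNF503 and TBX3 had differences of -0.63 and -0.50. A list of BMP-driven genes that the study made on these same arrays had 8 of 17 measured members higher and a median of 0.94, which is not independent evidence of its direction. ID1, ID3, SMAD6, HAND1 and TFAP2A are on this list and on that of the BMP-SMAD targets, so the latter is not independent of these arrays either.

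Markers of mesoderm and cardiac progenitors had 4 of 10 measured members higher and a median of 0.56. Besides HAND1 and MSX1 these were the homeobox genes PRRX2, with 6.47 against 5.14 (2.52-fold), and PITX1, with 5.95 against an undetected 4.89 (at least 1.90-fold). PRRX2 had 6.49 with BMP4 alone and 5.45 in untreated cells, so its level followed BMP4 on all 4 arrays. PITX1 was detected only with both treatments. The calls of PRRX2 and PITX1 were lost with an offset of 50 (0.82 and 0.59), with no background correction (0.59 and 0.41) and with the authors' values plus 50 (0.84 and 0.61). Neither GATA4, GATA6, TBX5 nor NKX2-5 was detected.

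Of 11 measured markers of amnion, trophoblast and surface ectoderm, 3 were higher: TFAP2A, HAND1 and GRHL3, a grainyhead factor of surface ectoderm (6.13 with both treatments against an undetected 4.83, at least 2.16-fold). The median of the list was 0.12. The GRHL3 difference was 0.52 with no background correction, and a second GRHL3 probe differed by 0.84. TFAP2C had 9.12 against 8.36, and the keratin KRT8 had 10.03 against 10.54, neither past the size rule.

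The primitive streak list had 1 of 7 measured members higher and a median of 0.15. EOMES, a T-box factor of streak, endoderm and cardiac mesoderm, had 9.74 with both treatments and 8.40 with CHIR99021 (2.54-fold), and 5.90 with BMP4 alone against an undetected 4.87 in untreated cells. Its levels with CHIR99021 were above both levels without it, and in each background it was higher with BMP4. MIXL1 had 6.84 against 6.12 and WNT3, a WNT ligand of the streak, 7.79 against 6.98, both under the size rule. NODAL had 9.27 on both arrays, and TBXT was detected on 1 of the 2 arrays at 5.10 against 4.95.

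Of 18 measured WNT-beta-catenin targets, 3 were higher and the median was 0.22. They were BAMBI, which is also on the BMP list, CDX2 and NOTUM. CDX2, a homeobox factor of posterior identity and trophectoderm, had 6.59 with both treatments and 5.25 with CHIR99021 (2.54-fold), and was not detected with BMP4 alone (4.42) or in untreated cells (4.40). The related CDX1 and CDX4 differed by 0.07 and 0.29. NOTUM, which removes a lipid from WNT ligands and so inactivates them, was detected only with both treatments (5.89, against 4.64 with CHIR99021, at least 1.82-fold), and its second probe differed by 0.89. The feedback target AXIN2 had 10.26 against 10.36 and SP5 had 9.45 against 9.79, whereas LEF1 had 6.39 against 5.91 and the cyclin CCND1 13.06 against 12.18. None of these 4 passed the size rule. The calls of CDX2 and NOTUM were lost with an offset of 50 (0.86 and 0.66), with no background correction (0.63 and 0.46) and with the authors' values plus 50 (0.87 and 0.70), which left BAMBI.

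Of 9 measured neural and neural crest genes 1 was higher. EBF3, an early B-cell factor family member, was detected only with both treatments, at 6.15 against 4.27 with CHIR99021, 4.44 with BMP4 alone and 4.41 in untreated cells (at least 2.18-fold). Its difference of 1.88 was 0.77 with no background correction. Over this list the median difference was 0.30, and 5 of the 9 differences were above 0. The neural genes OTX2 and ZIC2 went the other way, with differences of -0.76 and -0.62. None of 17 measured pluripotency genes passed, which does not set them apart from all genes (0.416% called), and their median was 0.11. NANOG had 10.11 against 9.82. SOX2 had 8.55 against 8.25, but its second probe had 7.65 against 8.49, so its 2 probes differed in direction. None of 3 endoderm genes passed, and their median was -0.19.

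In the Notch list 1 of 11 measured members was higher, with a median of 0.29. Of its 11 differences 10 were above 0, beside 49.7% of all measured genes, 15 of 17 BMP-SMAD targets and 13 of 16 immediate-early and stress genes. HES1, a basic helix-loop-helix repressor that acts downstream of Notch, had 7.74 with both treatments and 6.39 with CHIR99021 (2.55-fold), and 7.51 with BMP4 alone and 7.72 in untreated cells. The array with CHIR99021 alone was thus the low one, and the array with both treatments stood at the level of untreated cells. With no background correction the HES1 difference was 0.89. The glycosyltransferase LFNG (7.70 against 6.85) and HES4 (9.82 against 9.11) did not pass. The lists for cell cycle (17 measured), immediate-early and stress genes (16) and ribosomal and reference genes (14) had no call, with medians of -0.06, 0.23 and 0.01. With 0.416% of all genes called, a count of 0 does not set lists of this length apart. The lists for Activin, NODAL and TGF-beta responses, FGF-ERK feedback, YAP-TEAD targets, CDK inhibitors and p53 targets, sterol synthesis, the unfolded protein response and WNT ligands also had no call, with medians from -0.03 to 0.08. Among 10 measured Activin, NODAL and TGF-beta genes, differences ran from -0.75 to 0.84, with 5 above 0. At the low end LEFTY1, a secreted NODAL inhibitor, had 9.70 with both treatments and 10.46 with CHIR99021, and 10.86 with BMP4 alone and 11.83 in untreated cells. The cadherin and EMT list had CDH6 higher among 10 measured members. CDT1, which licenses replication origins and was not on the cell cycle list, was higher with 9.75 against 8.72 (2.03-fold), and had a difference of 0.92 with median scaling.

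Among the remaining higher genes were genes for receptors and secreted or matrix proteins. FGFR3, a receptor of fibroblast growth factors, had 10.79 with both treatments and 9.23 with CHIR99021 (2.94-fold), and 10.38 with BMP4 alone and 9.39 in untreated cells. A dim second FGFR3 probe had 5.13 against 5.08, so the difference was seen with 1 of 2 probes, and the mean of both differed by 0.80. EMILIN2, an extracellular matrix glycoprotein, had 10.86 against 9.37 (2.80-fold), and 10.29 against 9.20 without CHIR99021. The secreted synaptic organizer CBLN1 had 6.41 against 5.03, the metalloprotease PAPPA, which cleaves IGF-binding proteins, 6.75 against 5.46, and the cadherin CDH6 7.49 against 6.48. All 5 were also above their untreated level with BMP4 alone. With no background correction the differences of CBLN1, PAPPA and CDH6 were 0.60, 0.64 and 0.65.

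VENTX, a homeobox factor related to the ventralizing Vent genes of Xenopus, had 7.79 against 6.21 (2.99-fold), and 6.94 against 6.06 without CHIR99021. PDE4B, which degrades cyclic AMP, had 6.58 against 5.23 (a difference of 0.63 with no background correction), and its second detected probe differed by 0.31. EEF1A2, a translation elongation factor, had 9.17 against 7.80 (2.58-fold), with 8.89 under BMP4 alone and 8.61 in untreated cells, so that the CHIR99021 array was again the lowest. Of the remaining genes, CCDC102A, PLEKHF1, KCNK12, PICK1 and TMEM158 were higher by 1.06 to 1.14. With no background correction each of these fell below the size rule, with differences from 0.65 (CCDC102A) to 0.95 (TMEM158). EHMT1, a histone H3 lysine methyltransferase, had 6.03 against an undetected 4.89, and 5.71 with BMP4 alone against 6.15 in untreated cells. Its difference of 1.15 was 0.45 with no background correction.

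The 9 lower genes had smaller differences, from -1.03 to -1.19. BLOC1S1, a subunit of the complex that builds lysosome-related organelles, had 7.54 with both treatments and 8.72 with CHIR99021 (2.28-fold lower), and 8.44 with BMP4 alone and 7.95 in untreated cells. The lens crystallin gene CRYBB2, which has a closely similar pseudogene, had 5.66 against 6.70, and 5.68 and 5.72 on the BMP4 and untreated arrays, so that only the CHIR99021 array stood apart. The other 7 were not detected with both treatments. The largest of these decreases were those of the neurotrophin receptor NTRK2 (an undetected 4.30 with both treatments and 5.49 with CHIR99021), RNF122 (4.60 and 5.77), LOC728743 (4.48 and 5.57), DCAF1 (4.74 and 5.81), the apoptosis inhibitor XIAP (4.54 and 5.60) and the DNA repair factor XPA (4.79 and 5.82). With an offset of 50 only BLOC1S1 was still lower by the size rule. LRIG1, an inhibitor of receptor tyrosine kinases that was picked out after its values were seen, lay just outside the threshold with 7.72 against 8.69, and had 7.50 with BMP4 alone against 8.85 in untreated cells.

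The BMP4 difference in the absence of CHIR99021 shares no array with the comparison above, although all 4 arrays were normalized together. There, 22 of 10864 measured genes were higher (0.203%) and 10 lower (0.092%). Of the 44 genes called with CHIR99021 present, 37 (84.1%, 95% Clopper-Pearson interval 69.9% to 93.4%, which covers counting only and takes genes as independent) had the same sign without it, beside 5865 of 10155 genes (57.8%) measured in both comparisons. The share was 32 of 35 (91.4%) for higher genes and 5 of 9 (55.6%) for lower genes. The 44 include EBF3, CDX2, NOTUM, PITX1, LOC728743 and NTRK2, which were not detected on either array without CHIR99021. Their sign there compares background values, and genes of this kind are left out of the 10155, so the shares cover unlike sets. The sets are also unlike in size of difference. The 44 were chosen for differences of at least 1, whereas 95% of all measured genes lay between -0.60 and 0.70. The size rule was passed again by 13 of the 35 and by 0 of the 9. Across the 10155 genes the differences correlated with r = 0.27, and with 0.18 in the dimmest and 0.41 in the brightest of 4 equal groups by level. Genes are not independent replicates, and each r is a description of these arrays.

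Among genes called with CHIR99021 present, the size of the BMP4 difference without it varied. It was similar for CBLN1 (1.38 with and 1.39 without CHIR99021), PDE4B (1.35 and 1.30) and CDH6 (1.01 and 1.13), and larger without CHIR99021 for HAND1 (2.69 and 3.07) and ID3 (1.78 and 2.32). For EEF1A2 (1.37 and 0.28) it was small without CHIR99021. CBLN1 and PDE4B were not detected in untreated cells, and HAND1 was not detected on either array without BMP4. Differences against those arrays are taken from background values, so the sizes given for these genes are not exact. EBF3 (1.88 and 0.03), CDX2 (1.35 and 0.02) and NOTUM (1.24 and 0.18) were not detected on either array without CHIR99021. Their second value therefore compares background levels and does not measure a BMP4 difference. No difference between these pairs was tested, since each rests on 4 single arrays.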

How the data were processed

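RNA of 4 groups of HuES6 cells had been hybridized to Illumina HumanHT-12 V4 arrays, 1 per group, and groups were taken from the treatment labels. Per the file headers, the authors deposited a non-normalized intensity and a detection p-value for each of 47321 probes on each array. A second deposited table holds linear intensity values that the authors had normalized in GenomeStudio (version not given in the sources used here) by background subtraction and cubic spline normalization per the study's methods. That table was used as an alternative only. The deposited detection p-value places each probe among the array's negative controls.

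The non-normalized intensities were processed in R 4.3.3 with limma 3.58.1: normexp background correction, the background being inferred from detection p-values, then an offset of 16, quantile normalization over the 4 arrays and log2. With this offset, differences between dim values come out smaller. Depth does not apply to arrays, and their number limits the precision. Of 30120 probes in the platform annotation, 30112 had 1 symbol, 8 had several or none, and 30073 were matched to RefSeq genes (GRCh38.p14), while 17201 probes had no entry and stay unnamed. Each gene is represented by its brightest probe on average over the 4 arrays. Of the 63 higher and 21 lower probes, 15 and 8 were unnamed and 13 and 4 were further probes of a gene.

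With 1 array a group no test was run. Genes were named if among the 20 strongest increases or 12 strongest decreases past the size rule among genes detected on both arrays, the 10 and 6 largest among those detected on 1, members of the lists, genes past the rule in both BMP4 comparisons, and the 10 brightest past it; genes nearest to the threshold were added. The members and all 34 gene lists were chosen with earlier results of these data known. The calling step was tested on simulated data. These had the same random spread at every level and no planted difference close to the size rule. They therefore do not show how often dim genes or genes near the threshold are miscalled. There were 10 alternatives, covering background correction, normalization, the authors' values, the filter on dim probes and the choice of probe. Bead-level standard deviations were not used here.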

Additional observations from a re-analysis of the deposited data

Results flagged for a closer look

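For 7 of the 44 called genes the BMP4 difference had opposite signs with and without CHIR99021, and the difference between the 2 was not tested, since each side is 1 array. HES1, EHMT1 and PICK1 were higher with CHIR99021 present: HES1 differed by 1.35 with CHIR99021 and by -0.21 without it, EHMT1 by 1.15 and -0.44, and PICK1 by 1.09 and -0.13. A second PICK1 probe had a difference of 0.38 with CHIR99021. The others were lower with CHIR99021 present. BLOC1S1 differed by -1.19 with CHIR99021 and by 0.49 without it, NTRK2 by -1.18 and 0.15, DCAF1, a substrate receptor of a ubiquitin ligase, by -1.06 and 0.16, and XIAP by -1.05 and 0.24. EHMT1, NTRK2, DCAF1 and XIAP were detected on only 1 of the 2 arrays compared. NTRK2 was also not detected with BMP4 alone or in untreated cells, so its sign without CHIR99021 compares background values. DCAF1 and XIAP were not detected in untreated cells.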

How the results depend on the processing

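The counts of called genes, the share with the same sign, the median of the BMP-SMAD targets and the differences of the 44 called genes were recomputed under 10 alternatives; 16 called genes have no value for 1 of them. No called gene changed sign where it had a value. Other lists, probe counts, correlations and motif shares were not recomputed. The main processing gave 35 higher and 9 lower genes. An offset of 50 gave 16 and 1, no background correction 13 and 0, median scaling 26 and 17, the authors' values plus 16 gave 53 and 33, and plus 50 gave 16 and 1. Detection on both arrays gave 26 and 2. Median scaling moved the median of all genes to -0.11, and the lower genes there are relative to that shift. For detection at p below 0.05, no filter, quantile normalization over the 2 arrays, and the mean of a gene's probes, the counts stayed at 31 to 38 higher and 9 to 10 lower. Genes with the same sign without CHIR99021 made up 72.1% to 89.3% of the called genes, except for 100% with no background correction. The median of the BMP-SMAD targets was 0.42 with offset 50, 0.33 with no background correction and 0.51 with the authors' values plus 50, against 0.92, and the other values ran from 0.60 to 1.48. ID1, TFAP2A, HAND1, ID2, SMAD6, MSX1, ID3, VENTX, EMILIN2, BAMBI, EEF1A2 and EOMES (12 genes) passed the size rule in every alternative that measured them, and 0 lower genes did. Of 424 values of called genes under the alternatives, 98 fell below the size rule. No paired analysis was possible because each group holds 1 array, and for the same reason no replicate could be left out.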
